A study of Homo sapiens with 6 samples.

Results

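Older primate L1 families are the branches of the LINE-1 retrotransposon that multiplied in primate genomes before the young L1PA2 to L1PA7 and L1HS families. They were taken as all entries of the repeat count table whose name starts with L1P, leaving out L1PA2 to L1PA7, which gave 32 entries of 15641. By name, 11 are L1PA entries (L1PA8 to L1PA17), 8 are L1PB entries, 1 is the L1PR-type entry L1PREC2, 11 are L1P1 to L1P5 entries and 1 carries the bare name L1P. An entry sums the reads over every genomic copy that bears its name, so it has no single coordinate, and copy positions and consensus sequences were not used here.

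The RNA was bound to chromatin in H9 cells, a widely used line of human embryonic stem cells, and was sequenced in 3 libraries labelled naïve and 3 labelled primed. Naive cells model a state close to the preimplantation embryo, and RSeT is a commercial medium for keeping cells in a naive-like state. The growth text names RSeT for all 6 libraries, so the primed group rests on the treatment label alone. No genotype change or further agent is listed for either group, and H9 is a single line. Whether each library had its own culture is not stated, so p-values here speak only to the spread among libraries, part of which may be technical.

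LINE-1 is an autonomous retrotransposon: an internal promoter drives a full-length RNA that encodes an RNA-binding protein and a second protein with endonuclease and reverse transcriptase activity, which together copy the RNA back into DNA. In the human genome only some of the youngest copies still move. Older copies carry many mutations and are mostly truncated at the 5′ end. Many lie inside introns, so a read over such a copy may belong to the transcript of its host gene, and the table does not separate these sources. Within the L1PA names a higher number marks an older family, L1PB names a further primate lineage, and L1M names cover still older mammalian families.

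Library totals lay between 9748202 and 17791046 counts in naive libraries and between 118793 and 8106871 counts in primed libraries, with primed library 2 by far the shallowest. Summed over the 32 entries, naive libraries 1 to 3 held 269993, 402375 and 455162 counts, against 166554, 4888 and 259142 counts for primed libraries 1 to 3. In primed library 2, 8 of the 32 had fewer than 10 counts. Alpha satellite took 25.3% to 42.9% of all counts in naive libraries and 0.221% to 0.625% in primed libraries, and ribosomal RNA took 0.169% to 6.08% in naive libraries and 4.04% to 17.7% in primed libraries. A large satellite share lowers the share of everything else, so levels are given as CPM (counts scaled by the library total) with TMM factors, which correct each library on the assumption that most entries do not change, and again as shares of L1 counts. Among repeats taken as marks of the naive-type state, HERVK-int was 12.3-fold and LTR5_Hs 3.01-fold higher in naive cells (edgeR adjusted p = 7.88e-05 and 0.00443). LTR7Y, of the same type, did not pass (edgeR adjusted p = 0.0686). HERVH-int and LTR7, taken as marks of primed-type pluripotent cells, were also higher in naive cells, 2.20-fold and 1.82-fold (edgeR adjusted p = 0.0106 and 0.0156). The primed-type marks thus did not go with the labels.

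With TMM scaling, part of the older primate L1 names were moderately more abundant on chromatin in naive cells. Of the 32 entries, all of them tested, 13 were called higher and 0 lower (edgeR, adjusted p under 0.05 by Benjamini-Hochberg over 3219 entries). Over all entries tested 4.94% were called higher and 7.77% lower, and over the 1262 tested entries that are neither simple repeats nor low-complexity sequence 10.4% were called higher and 1.19% lower. At an unadjusted p under 0.05, 22 of the 32 were higher and 0 lower by edgeR. The share of all entries passing an unadjusted p was not counted, here or in the fits below. DESeq2 called 10 of the 32 higher and 0 lower, where 2.99% of all entries with an adjusted p were called higher. The log2 change, naive minus primed, was above 0 for 31 of the 32, with a median of 0.49 and a range of -0.16 to 1.64. The median over all entries tested was -0.0046, and over the 1262 tested entries outside simple and low-complexity repeats it was 0.21. It was 0.23 over the other L1 and HAL1 entries and 0.36 over the 7 young families L1HS and L1PA2 to L1PA7. Over the 88 L1M entries it was 0.23. The log2 change was also above 0 for 96 of the 99 other L1 and HAL1 entries. A positive sign was thus not particular to the older primate families. In a bulk sample, a smaller fraction of cells making an RNA cannot be told apart from less of it in each cell.

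These calls depended on the libraries and on the scaling. Primed library 1 was the lowest primed library for 29 of the 32 entries, and without it edgeR called 0 of them, against 13 at an unadjusted p under 0.05. In that fit 8 of all 3472 entries tested were called higher (0.23%) and 7 lower (0.202%), and the median of the 32 entries was 0.32. Primed library 1 was also the library with the highest ribosomal RNA share, 17.7%, and naive library 2, the highest naive library for 23 of the 32 entries, had the highest alpha satellite share, 42.9%. After the alpha satellite and ribosomal RNA entries were taken out before scaling, 12 of the 32 were called higher and 0 lower. In that fit 4.22% of all entries tested were called higher. Without naive library 2, 5 entries were called higher and 0 lower, where 1.58% of all entries tested were called higher and 3.44% lower. Without primed library 3, 8 were called higher and 0 lower, against 3.64% and 8.89% of all entries tested. With the library total as the only scaling, 1 entry was called higher and 1 lower, where 0.87% of all entries tested were called higher and 32.6% lower, and the median of the 32 was -0.21. That scaling moved the median of all entries tested to -0.61, so that relative to it the older primate L1 median stood 0.41 higher, against 0.50 higher with TMM. A change of scaling shifts all entries by nearly the same amount. This difference therefore cannot show whether the higher level in naive cells holds under another scaling. The same difference was 0.29 with simple repeats left out, 0.25 after every library was thinned to the depth of primed library 2 (24 of the 32 tested) and 0.31 without primed library 1.

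**Figure D1:**
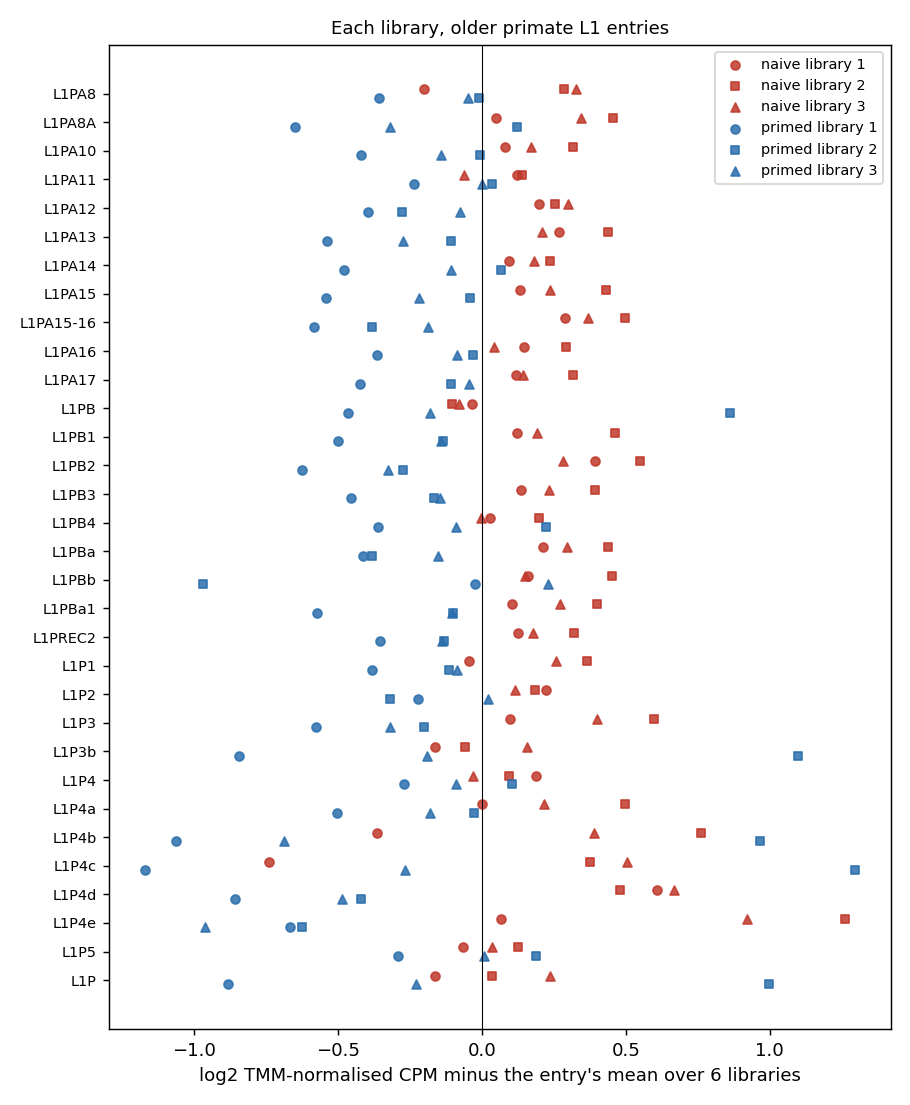
Each row is 1 of the 32 older primate L1 entries and each point 1 library; the horizontal axis is the log2 of its TMM-normalised CPM minus the mean of that log2 over the 6 libraries. The 3 naive libraries (red) lie to the right of the 3 primed libraries (blue) without overlap for 20 entries, and primed library 2 scatters most for the entries with few counts, such as L1P3b, L1P4c and L1P.

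The naive and primed libraries did not overlap, with naive higher, for 20 of the 32 entries in TMM-normalised CPM. The same held for 19.4% of all entries tested and for 36.1% of those outside simple and low-complexity repeats. It also held for 62 of the 99 other L1 and HAL1 entries, and within these for 57 of the 88 L1M entries. The separation was thus not particular to the older primate families. For 0 of the 32 were the naive libraries all lower, against 11% of all entries tested and 0 of the 99 other L1 and HAL1 entries.

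Among the 11 L1PA entries, 4 were called higher, 0 lower, and all 11 had a positive log2 change, with a median of 0.38 and a range of 0.13 to 0.76. L1PA15-16, a name that joins L1PA15 and L1PA16, had 321, 370.4 and 339 CPM in the naive libraries in order of number, against 175, 201 and 231 in the primed libraries. The groups did not overlap, and the lowest naive library stood well above the highest primed one. The log2 change was 0.76 ± 0.14 (SE; edgeR adjusted p = 0.0133), the largest of the L1PA entries.

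L1PA13 had 2339, 2636 and 2246 CPM in naive libraries, against 1340, 1807 and 1610 in primed libraries. No primed library reached the lowest naive one, and the log2 change was 0.61 ± 0.14 (SE; edgeR adjusted p = 0.0232). L1PA12 was at 428, 445 and 459.7 CPM in naive libraries and at 284, 308 and 354 in primed libraries, with groups apart and a log2 change of 0.49 ± 0.13 (SE; edgeR adjusted p = 0.0348). L1PA15 was the fourth call, with 0.53 ± 0.15 (SE; edgeR adjusted p = 0.0401).

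L1PA16 had the most counts of the L1PA names, 187361 over the 6 libraries. Its levels were 3854, 4261 and 3582 CPM in naive libraries, against 2703, 3407 and 3278 in primed libraries. The groups were again apart, but the log2 change of 0.32 ± 0.13 (SE) did not pass (edgeR adjusted p = 0.122; interval 0.03 to 0.61 at 95%). The other entries without a call were L1PA8 at 0.29, L1PA8A at 0.57, L1PA10 at 0.38, L1PA11 at 0.13, L1PA14 at 0.34 and L1PA17 at 0.38 (log2 changes; edgeR adjusted p between 0.0635 and 0.498). Over the 9 L1PA entries named by a single number, the log2 change and the number had a Spearman correlation of 0.35. This is a description only, since the points share the same libraries and scaling.

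The 8 L1PB entries had 5 called higher and 0 lower, with a median log2 change of 0.51. L1PB2 was at 889, 990.1 and 823 CPM in naive libraries, against 439 in primed library 1, 559 in primed library 2 and 539.8 in primed library 3. The lowest naive library stood clear of the highest primed one, and the fold difference was 1.77 (log2 0.82 ± 0.14, SE; edgeR adjusted p = 0.00959). L1PBa had 744, 869 and 787 CPM in naive libraries and 482, 492 and 577 in primed libraries, a log2 change of 0.62 ± 0.13 (SE; edgeR adjusted p = 0.0177).

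L1PB3 had 779, 929.7 and 832 CPM in naive libraries and 518, 632 and 641 in primed libraries, a log2 change of 0.51 ± 0.14 (SE; edgeR adjusted p = 0.0344). L1PB1, with 222673 counts the most counted of the 32 entries, had 4322, 5476 and 4534 CPM in naive libraries and 2811, 3614 and 3595 in primed libraries, a log2 change of 0.52 ± 0.14 (SE; edgeR adjusted p = 0.0387). In both entries the naive libraries stood apart from the primed ones, and naive library 2 was the highest. L1PBa1 passed narrowly, with 0.54 ± 0.16 (SE; edgeR adjusted p = 0.0499).

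L1PB, the name without a number, was the only one of the 32 with a negative log2 change. It had 325, 309.7 and 315 CPM in naive libraries, against 241, 604 and 294 in primed libraries. The high value came from 108 counts in primed library 2, and the other primed libraries were below all naive ones. The log2 change of -0.16 ± 0.26 (SE) did not pass (edgeR adjusted p = 0.699), and without primed library 2 it was 0.26. L1PB4 with 0.14 and L1PBb with 0.25 did not pass (log2 changes; edgeR adjusted p = 0.549 and 0.391).

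L1PREC2, the sole L1PR-type entry, had 2179, 2494 and 2263 CPM in naive libraries, against 1566, 1824 and 1817 in primed libraries. The groups were apart, and the log2 change of 0.42 ± 0.12 (SE) passed near the threshold (edgeR adjusted p = 0.0462). It was called in 2 of the 6 fits that leave out 1 library.

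The 11 entries L1P1 to L1P5 had 3 called higher and 0 lower, with a median log2 change of 0.53, and they held both the largest changes and the least precise ones. L1P4e had 18.1, 41.4 and 32.7 CPM in naive libraries, against 10.9, 11.2 and 8.86 in primed libraries. It was 3.11-fold higher in naive cells (log2 1.64 ± 0.32, SE; edgeR adjusted p = 0.0148), the largest change of the 32. Its naive libraries differed more than 2-fold among themselves, and the primed library 2 value rests on 2 counts.

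L1P4d had 34.2, 31.3 and 35.7 CPM in naive libraries, against 12.4, 16.8 and 16.04 in primed libraries. The naive libraries were close to one another and above the primed ones, with a log2 change of 1.23 ± 0.21 (SE; edgeR adjusted p = 0.00959). The primed library 2 value of L1P4d rests on 3 counts. L1P3, the most counted of these names, had 749.8, 1062 and 924 CPM in naive libraries, against 469.7, 609.7 and 562 in primed libraries, and a log2 change of 0.75 ± 0.16 (SE; edgeR adjusted p = 0.0177).

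The other L1P4 names ranged widely without a call. L1P4 itself stood at 581, 543 and 499 CPM in naive libraries and 423, 548 and 479 in primed libraries, with groups that overlapped and a log2 change of 0.18 ± 0.14 (SE; edgeR adjusted p = 0.401). L1P4a gave 0.53, L1P4b 1.01 and L1P4c 0.71 (log2 changes; edgeR adjusted p = 0.0613, 0.102 and 0.351). The fitted values for the rarest entries rest on few reads: L1P4c had 12, 33 and 46 counts in naive libraries and 8, 1 and 19 in primed libraries.

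L1P1 (0.40), L1P2 (0.33), L1P3b (0.37) and L1P5 (0.14) did not pass (log2 changes; edgeR adjusted p between 0.0947 and 0.649). The bare-named L1P had 22, 32 and 47 counts in naive libraries and 12, 1 and 24 in primed libraries, and a log2 change of 0.50 ± 0.40 (SE) that did not pass (edgeR adjusted p = 0.426). For L1P3b, L1P4c and L1P the mean CPM were lower in naive than in primed libraries although the fitted log2 change was positive. The plain mean gives the 1 or 2 counts of primed library 2 the weight of a full library, while the fit weights libraries by depth. A difference in these 3 entries was not detectable at this depth.

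**Figure D2:**
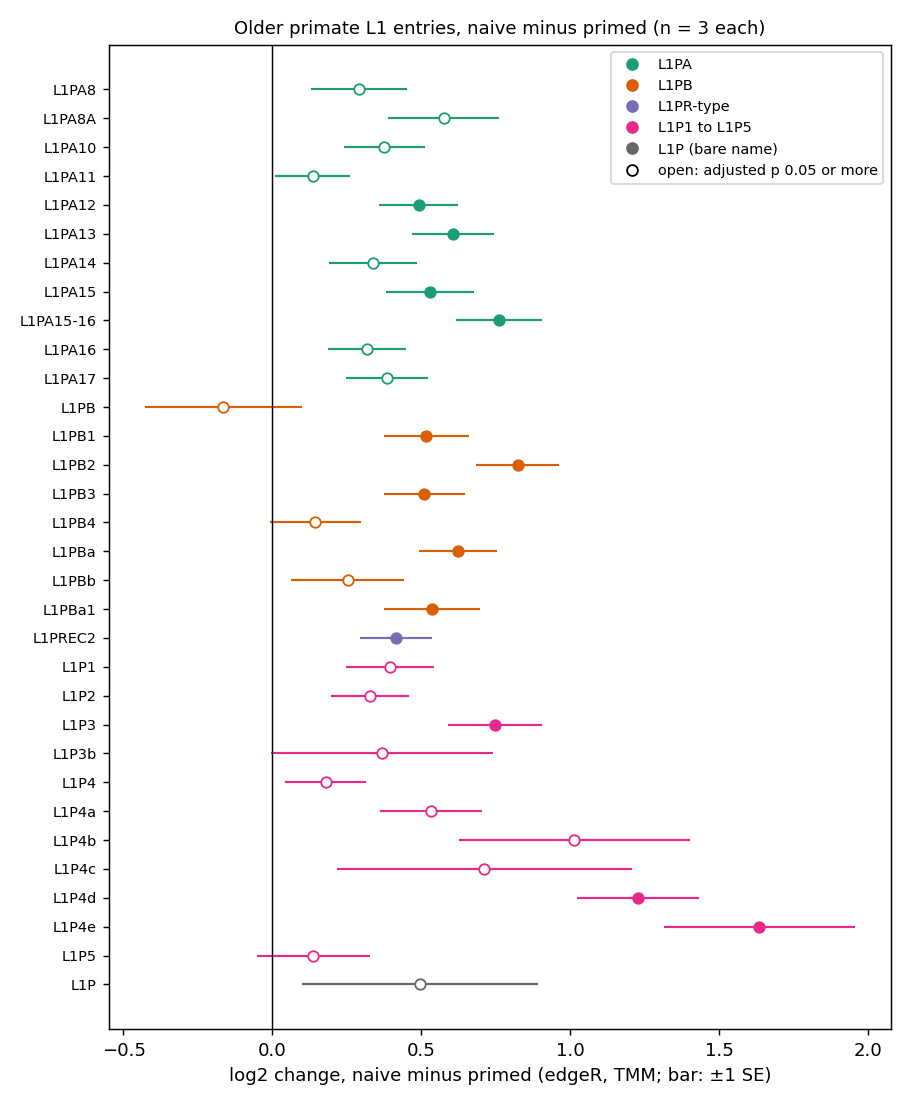
The log2 change between naive and primed libraries (n = 3 each) is shown for each of the 32 entries with 1 SE to each side, coloured by name group; filled points passed an edgeR adjusted p of 0.05 and open points did not. L1P4e at 1.64, L1P4d at 1.23 and L1PB2 at 0.82 are the filled points farthest right, and L1PB at -0.16 is the one entry left of 0.

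Across the name groups the median log2 changes were 0.38 for L1PA, 0.51 for L1PB, 0.42 for L1PREC2 and 0.53 for L1P1 to L1P5, and their ranges overlapped. The share called higher was 4 of 11 L1PA, 5 of 8 L1PB, 1 of 1 L1PR-type and 3 of 11 L1P1 to L1P5 entries. Differences between these groups were not tested, since the groups differ in counts per entry and hence in power. Within all older primate L1 counts, the L1PA part was 55.9%, 55.1% and 55.7% for the naive libraries, against 56.4%, 56.9% and 56.5% for the primed libraries. L1PB took 27.9%, 28.5% and 27.5% in naive libraries and 26.6%, 27.4% and 27.2% in primed libraries. The naive libraries were thus lower in L1PA share and higher in L1PB share with no overlap. The group means were close, however, at 55.6% and 56.6% for L1PA and at 28.0% and 27.1% for L1PB, naive and primed. For primed library 2 the 95% Wilson intervals, 55.5% to 58.3% for L1PA and 26.2% to 28.7% for L1PB, span the gap to the naive libraries. In L1PA the nearest libraries were instead primed library 1 (56.2% to 56.6%) and naive library 1 (55.7% to 56.1%). Their intervals, of counting error only, did not meet.

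Shares of L1 counts do not depend on satellites, ribosomal RNA or scaling factors. Older primate L1 entries took 15.1% ± 0.511 of all L1 and HAL1 counts in naive libraries and 13.5% ± 1.35 in primed libraries (SD, n = 3 each). By library the share was 14.6%, 15.6% and 15.3% among naive libraries, against 12.1%, 14.8% and 13.5% among primed libraries. The groups overlapped, because primed library 2 (95% Wilson interval 14.4% to 15.2%) reached naive library 1. Wilson intervals of the other 5 libraries were narrower than that of primed library 2, and all such intervals cover counting error only.

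The L1PREC2 share was 1.03%, 1.08% and 1.08% in naive libraries, against 0.900%, 0.988% and 0.953% in primed libraries. The L1P1 to L1P5 share was 1.34%, 1.47% and 1.48% in naive libraries, against 1.15%, 1.33% and 1.25% in primed libraries. In both name groups the naive libraries were higher with no overlap. For primed library 2, however, the counting interval was 0.887% to 1.10% for L1PREC2, which covers all naive values. In L1P1 to L1P5 the nearest libraries likewise differed by less than the counting interval of primed library 2, 1.21% to 1.46%. L1PB took 4.06%, 4.44% and 4.21% in naive libraries and 3.23%, 4.06% and 3.68% in primed libraries, where naive library 1 and primed library 2 were level. L1PA took 8.14%, 8.57% and 8.53% in naive libraries and 6.83%, 8.43% and 7.64% in primed libraries, and the groups overlapped.

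**Figure D3:**
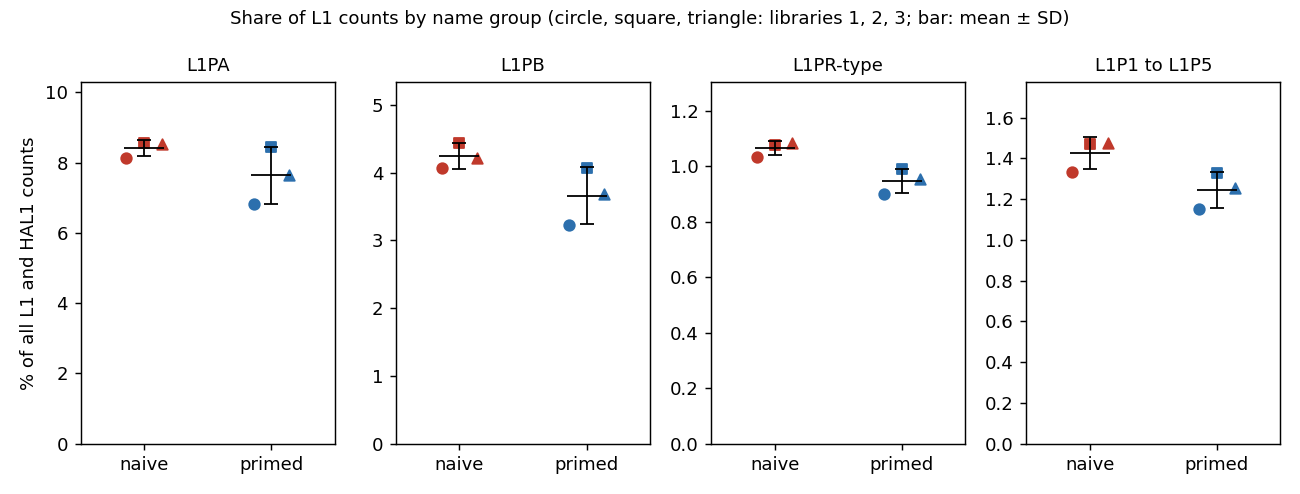
Each panel shows 1 name group as a percentage of all L1 and HAL1 counts, with 1 point per library and the mean ± SD of the 3 naive and the 3 primed libraries. The L1PREC2 panel runs from 1.03% to 1.08% in naive libraries and from 0.900% to 0.988% in primed libraries, and primed library 1 (circle) is the lowest library in all 4 panels.

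Entry by entry, 13 of the 32 took a larger share of L1 counts in every naive library than in any primed library and 0 a smaller one. Among all 131 L1 and HAL1 entries 22.1% did so in the upward and 6.87% in the downward direction. When L1 and HAL1 counts were used as the library size in the edgeR fit, 5 entries were called higher and 0 lower, against 1.8% of all entries called higher and 12.8% lower. The median over all entries tested was -0.25 in that fit. The 5 entries were L1PA15-16 (log2 0.52 ± 0.13, SE; edgeR adjusted p = 0.0263), L1PB2 (0.58 ± 0.12; 0.0185), L1P3 (0.50 ± 0.14; 0.0397), L1P4d (0.99 ± 0.21; 0.0194) and L1P4e (1.37 ± 0.32; 0.0216). These 5 were also the only calls among the 131 L1 and HAL1 entries in that fit, of which 3.82% were called higher and 0% lower. The other 8 calls made with TMM had positive values there and did not pass. The lowest value was that of L1PB (log2 -0.40; edgeR adjusted p = 0.332), and L1PA11 (-0.11), L1PB4 (-0.10), L1P4 (-0.06) and L1P5 (-0.11) were also below 0.

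The 5 entries are also described against a related name within each library. For each 100 counts of L1P4, L1P4d had 5.90, 5.76 and 7.14 counts in naive libraries, against 2.93, 3.06 and 3.35 in primed libraries. The L1P4e ratio to 100 L1P4 counts was 3.12, 7.62 and 6.55 in naive libraries and 2.57, 2.04 and 1.85 in primed libraries. Neither ratio overlapped between the groups, although naive library 1 lay close to the primed libraries for L1P4e. In primed library 2 the ratios rest on 3 counts of L1P4d and 2 of L1P4e, against 98 of L1P4.

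L1P3 had 105.7, 112.5 and 105.6 counts for each 100 counts of L1P1 in naive libraries, against 83.6, 90.1 and 81.4 in primed libraries. L1PA15-16 had 8.33, 8.69 and 9.46 counts for each 100 of L1PA16 in naive libraries, against 6.48, 5.91 and 7.03 in primed libraries. L1PB2 had 20.6, 18.1 and 18.2 counts for each 100 of L1PB1 in naive libraries, against 15.6, 15.5 and 15.01 in primed libraries. In these 3 pairs the naive libraries were higher with no overlap. The pairs were chosen after the values were seen, setting called entries against names with smaller changes, so they describe differences relative to those names only and carry no test. By contrast L1PB3 had 18.02, 16.98 and 18.4 counts for each 100 of L1PB1 in naive libraries and 18.4, 17.5 and 17.8 in primed libraries, with groups that overlapped. The ratios of L1PA12 to L1PA16, L1PBa to L1PB1 and L1P4a to L1P4 also overlapped between the groups. The ratio of L1PA13 to L1PA16 did not overlap, although L1PA13 was not called with L1 and HAL1 counts as library size. L1PA13 had 60.7, 61.9 and 62.7 counts for each 100 of L1PA16 in naive libraries, against 49.6, 53.0 and 49.1 in primed libraries. A separated ratio was thus not particular to the entries called in that fit.

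**Figure D4:**
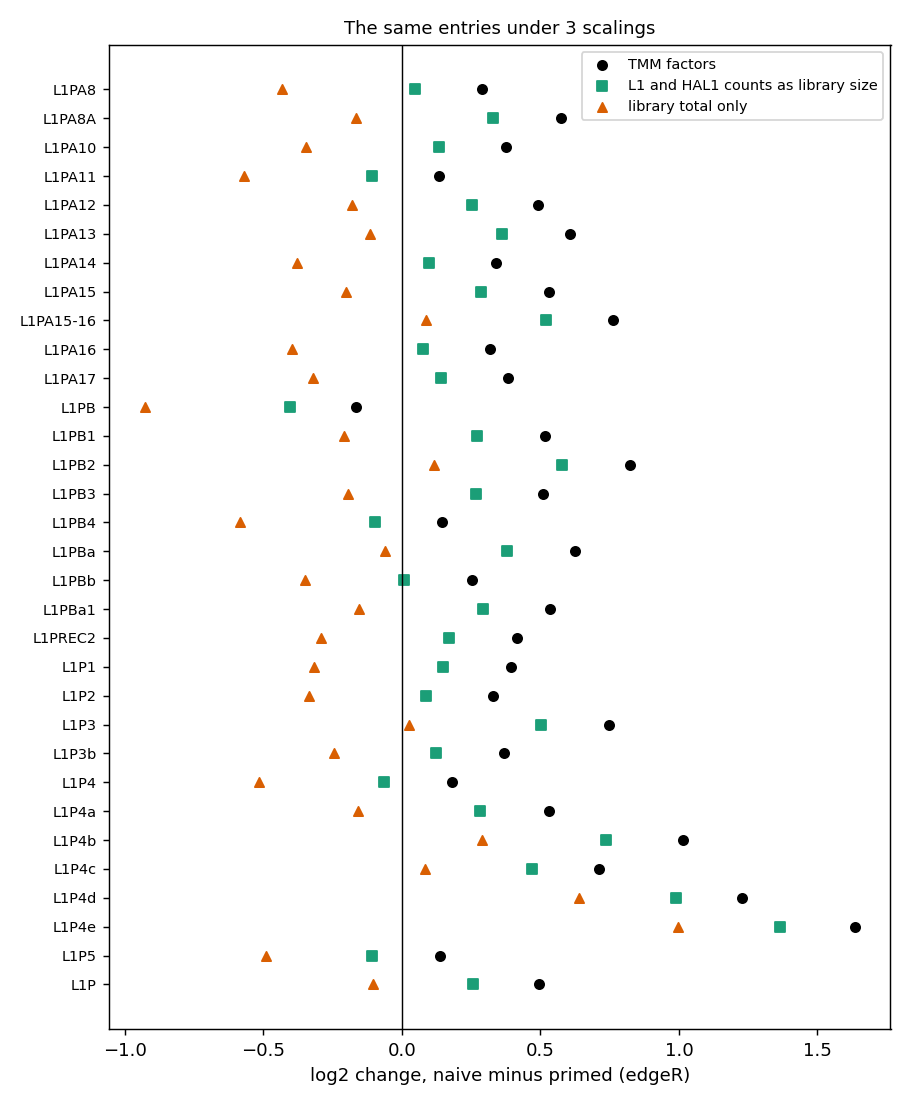
The log2 change of each of the 32 entries, naive minus primed, is drawn with TMM factors (black), with L1 and HAL1 counts as library size (green) and with the library total only (orange). The 3 series run nearly parallel, with medians of 0.49, 0.25 and -0.21, and L1P4d and L1P4e lie to the right of 0 in all 3.

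With the library total only, the single higher call was L1P4e (log2 0.998; edgeR adjusted p = 0.0243) and the single lower call L1PB (-0.93; 0.00393), while 25 of the 32 log2 changes were below 0. L1P4d stayed positive without passing (0.64; edgeR adjusted p = 0.136). Across all 18 alternatives tried, L1P4e was called in 16 of the 17 in which it was tested, L1P4d in 15 of 17, L1PB2 and L1PA15-16 in 15 of 18 each and L1P3 in 14 of 18. Without primed library 1 all of these missed the threshold, with log2 changes of 1.76 for L1P4e, 1.06 for L1P4d, 0.69 for L1PB2, 0.63 for L1PA15-16 and 0.62 for L1P3 (edgeR adjusted p between 0.0656 and 0.141). The calls with the least support were L1PBa1, in 4 of 18, and L1PREC2, in 5 of 18.

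**Figure D5:**
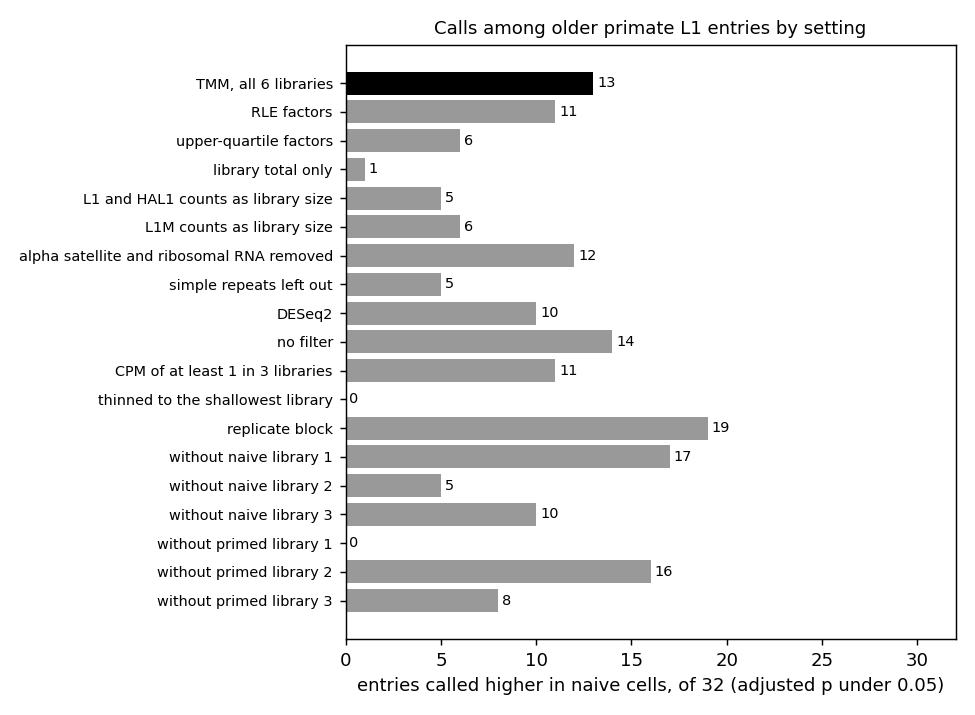
Bars give the number of the 32 entries called higher in naive cells under each setting, with the reported fit in black. The count is 13 with TMM and all 6 libraries, reaches 19 with the replicate number as a block, and is 0 without primed library 1 and after thinning every library to the depth of primed library 2. In the same order, 4.94%, 8.20%, 0.23% and 0.413% of all entries tested were called higher.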

How the data were processed

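The authors deposited 1 table of raw counts for each repeat name in each library, in whole numbers and with no sign of normalisation. Trimmomatic 0.39, STAR 2.7.8a, featureCounts and Subread 2.14.2 are listed, per the submitters' processing notes. Not given in the sources used here are the genome build, which repeat annotation and strand setting were used, and how reads with several mapping places were counted, so near-identical L1 names may share reads.

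Columns were matched to samples by title. The whole table was fitted with edgeR 4.0.16 in R 4.3.3 (filterByExpr, TMM, quasi-likelihood test, naive minus primed, Benjamini-Hochberg over the 3219 entries kept). The SE is the absolute log2 change over the square root of the F statistic. The kept entries held at least 99.7% of each library's counts. The procedure was checked on simulated counts, where it called 48.5% of 2-fold and 93.8% of 4-fold changes. Of its calls there, 1.43% were unchanged entries. Changes below 2-fold, as most here are, were not simulated. Entries were drawn independently, with changes of random sign and no shift shared by the entries of a library. The rate of unchanged entries among the calls may therefore not hold for these libraries. Members, name groups and tests were chosen with earlier results of these data known. Full values are given for the 3 calls with the lowest p in each name group, the most counted entry of each, and the lowest and highest log2 change; others were named after their values were seen. Alternatives were other scalings, DESeq2 1.42.0, other filters, thinning, a block and leaving out each library; L1M counts as library size was added after the data were seen. Figures used matplotlib 3.10.9.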

Additional observations from a re-analysis of the deposited data

How the results depend on the processing

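Of 13 entries called higher, the count stayed within 1.5 times with RLE factors (11), with alpha satellite and ribosomal RNA removed (12), with DESeq2 (10), with no filter (14), with a CPM of at least 1 in 3 libraries (11) and with the replicate block (19). In the same order, 4.38%, 4.22%, 2.99%, 2.59%, 4.69% and 8.20% of all entries were called higher, against 4.94% in the reported fit. The count was 6 with upper-quartile factors, 1 with library total only, 5 with L1 and HAL1 counts and 6 with L1M counts as library size, 5 with simple repeats left out and 0 of 24 tested after thinning (5 at an unadjusted p under 0.05). In the same order, 3.23%, 0.87%, 1.80%, 2.27%, 2.46% and 0.413% of all entries were called higher. Leaving out 1 library gave between 0 and 17, where the share of all entries called higher ran from 0.23% to 6.81%. The lowest counts came without primed library 1 (0), naive library 2 (5) and primed library 3 (8). The count called lower was 0 in all settings but library total only (1, L1PB). The median log2 change lay between 0.32 and 0.57 without 1 library, and was 0.25 with L1 and HAL1 counts as library size, 0.27 with simple repeats left out, 0.24 after thinning and -0.21 with library total only. DESeq2 gave 1 entry no adjusted p.

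With library total only the medians turned to -0.32 (L1PA), -0.20 (L1PB), -0.29 (L1PR-type), -0.16 (L1P1 to L1P5) and -0.10 (L1P), and 24 entries changed sign: L1PA8 -0.43, L1PA8A -0.17, L1PA10 -0.34, L1PA11 -0.57, L1PA12 -0.18, L1PA13 -0.11, L1PA14 -0.38, L1PA15 -0.20, L1PA16 -0.40, L1PA17 -0.32, L1PB1 -0.21, L1PB3 -0.20, L1PB4 -0.58, L1PBa -0.0628, L1PBa1 -0.16, L1PBb -0.35, L1PREC2 -0.29, L1P1 -0.32, L1P2 -0.33, L1P3b -0.24, L1P4 -0.52, L1P4a -0.16, L1P5 -0.49 and L1P -0.10. As shares of all counts, the log2 ratio of naive to primed means was -0.31 for all 32 entries, -0.34 for L1PA, -0.27 for L1PB, -0.30 for L1PREC2 and -0.28 for L1P1 to L1P5, where shares of L1 counts gave positive values.

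Among entries not called, L1PB4, L1PA11, L1P5 and L1P4 turned to -0.0990, -0.108, -0.11 and -0.0635 with L1 and HAL1 counts as library size and to -0.0815, -0.0971, -0.0660 and -0.0410 with simple repeats left out. The first 3 gave -0.0345, -0.0426 and -0.0108 with L1M counts as library size. L1PA11 gave -0.00210 with upper-quartile factors. After thinning L1PB4 gave -0.24, L1PA11 -0.00731, L1P1 -0.0703 and L1P4a -0.0499. Without 1 library, L1PB ranged from -0.46 to 0.26, L1PB4 from -0.0160 to 0.31 and L1P5 from -0.0113 to 0.24, and the log2 ratio of the bare L1P share from -0.68 to 0.33. The causes were not tested.

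Same-numbered naive and primed libraries deviated together only weakly (correlations of 0.146, 0.087 and 0.066 across entries), so the numbers are not taken to pair them, although each library correlated best with its own number; with the replicate block 19 entries were called and the 13 were kept. The depth of primed library 2, where 3 counts are 25.3 CPM before TMM factors and 16.8 CPM with them, limits the rarest entries.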
